A study of Mus musculus with 5 samples.

Results

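DNA of 7 genes was examined across 5 libraries of mouse embryonic stem cells. The genes, Sox17, Foxa2, Gata4, Gata6, T, Pax6 and Nkx2-2, encode transcription factors that direct cells into particular lineages. They were taken by name, each as a fixed window in the mm9 build of the mouse genome with 10 kb of flank on either side. The windows lie on chromosome 1 at 4481001–4487000 (Sox17), chromosome 2 at 105508001–105538000 (Pax6), 147000001–147013000 (Nkx2-2) and 147868001–147873000 (Foxa2), chromosome 14 at 63817001–63866000 (Gata4), chromosome 17 at 8627001–8636000 (T) and chromosome 18 at 11052001–11086000 (Gata6). Together they hold 146 of the 2638957 bins of 1 kb on chromosomes 1 to 19 and X, and their flanks hold 140 more.

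The study mapped 5-methylcytosine (5mC) and 5-hydroxymethylcytosine (5hmC). MeDIP used 2 µg of an antibody to 5mC and hMeDIP 2 µg of an antibody to 5hmC, both on denatured DNA. MethylCap captured 1 µg of DNA fragments on 2 µg of a methyl-CpG binding domain (MBD) fused to GST, and the bound DNA came off at 600 mM or 800 mM NaCl. These 4 libraries were labelled as made from clones of the E14 line out of a gene-trap library at passages 11 to 14; neither the number of clones nor the trapped genes are given in the sources used here. As input served DNA from chromatin of the line TNG-A, which derives from E14 and has a green fluorescent reporter at Nanog, so the input came from another line than the 4 enriched libraries. In a ratio to input, a difference between the lines and enrichment cannot be told apart. All cells grew without feeders in 10% serum with leukaemia inhibitory factor. Each library was sequenced once: differences below lie between single libraries, and no test between conditions was possible.

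In embryonic stem cells, genes of this class are known to carry activating and repressive histone marks together at CpG-rich promoters, a state called bivalent, and to be silent but poised. CpG-rich promoters as a rule lack 5mC. TET enzymes oxidise 5mC to 5hmC, and TET1 is known to bind CpG-rich promoters in these cells, while MBD proteins bind methylated CpG well and hydroxymethylated CpG poorly. No library measured histone marks or expression, so the bivalent state of the genes was not checked here.

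The promoters show how much substrate these marks could have. RefSeq promoter windows of 300 bases (250 before and 50 after a transcript start, build GRCm38.p6) were matched by symbol for 4 of the genes, namely Pax6, Nkx2-2, Foxa2 and T; Sox17, Gata4 and Gata6 are named only. The most upstream listed start of each of the 4 is shown 5′ to 3′, because the comparison below turns on the 5′ ends of the genes. Capitals mark CpG, the dinucleotide that carries most 5mC and that the MBD binds.
Pax6 (chr2:105668646-105668945, strand plus): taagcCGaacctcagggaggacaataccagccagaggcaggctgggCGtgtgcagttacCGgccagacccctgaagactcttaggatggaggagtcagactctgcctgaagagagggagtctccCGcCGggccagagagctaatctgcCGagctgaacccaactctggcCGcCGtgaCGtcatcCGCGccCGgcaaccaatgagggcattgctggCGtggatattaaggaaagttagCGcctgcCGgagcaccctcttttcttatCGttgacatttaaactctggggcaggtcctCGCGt
Nkx2-2 (chr2:147186353-147186652, strand minus): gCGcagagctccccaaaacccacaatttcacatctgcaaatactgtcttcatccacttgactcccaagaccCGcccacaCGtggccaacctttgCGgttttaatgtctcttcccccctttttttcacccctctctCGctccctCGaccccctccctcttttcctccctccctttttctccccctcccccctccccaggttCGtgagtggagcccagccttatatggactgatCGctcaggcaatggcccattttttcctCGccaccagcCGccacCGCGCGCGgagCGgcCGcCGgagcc
Foxa2 (chr2:148046920-148047219, strand minus): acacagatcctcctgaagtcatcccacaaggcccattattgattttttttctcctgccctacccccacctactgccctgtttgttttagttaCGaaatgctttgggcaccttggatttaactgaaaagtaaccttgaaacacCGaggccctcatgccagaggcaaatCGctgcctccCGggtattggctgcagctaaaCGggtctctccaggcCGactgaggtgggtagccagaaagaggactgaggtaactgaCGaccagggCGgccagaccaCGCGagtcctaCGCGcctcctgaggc
T (chr17:8434173-8434472, strand plus): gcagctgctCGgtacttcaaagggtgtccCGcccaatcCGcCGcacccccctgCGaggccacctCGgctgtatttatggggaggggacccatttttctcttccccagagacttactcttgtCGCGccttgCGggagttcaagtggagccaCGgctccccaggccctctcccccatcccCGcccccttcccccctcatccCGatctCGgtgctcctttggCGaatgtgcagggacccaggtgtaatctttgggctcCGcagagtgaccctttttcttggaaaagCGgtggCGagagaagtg
The letters CG, which read the same on both strands, occur 18 times in this Pax6 window, 17 times in that of Nkx2-2, 12 times in that of Foxa2 and 17 times in that of T. The median over the 32851 promoters of the table was 7. At least as many were held by 29.7% of all promoters for Pax6, 31.4% for Nkx2-2 and T, and 39.6% for Foxa2. Of the other listed starts, a later one of Foxa2 held 23 CpG and another 13, and a later one of Pax6 held 16. These windows were not placed on mm9, because no mm9 gene models were used.

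Depth sets what can be seen at single genes. On chromosomes 1 to 19 and X there were 10442811 reads in MeDIP, 18519740 in hMeDIP, 10462783 and 7507520 in the 600 mM and 800 mM eluates and 18676265 in the input. The median bin of the 7 windows held 3, 8, 4 and 2 reads in these enriched libraries and 7 in the input, so most values below are sums over several kb. Ratios are of reads scaled by these totals, with exact 95% intervals (Clopper-Pearson on the conditional binomial) in brackets. These intervals describe counting error alone, because each group has 1 library, and they do not cover variation between libraries. No molecular identifiers separate PCR copies. A ratio to input shares its input reads with the other ratios to input at the same place, whereas the ratio of the antibodies uses no input.

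Summed over the 7 windows, the 5hmC antibody gave 1594 reads and stood at 1.41-fold of input (1.31 to 1.53), while the 5mC antibody, with 623 reads, stood at 0.979-fold (0.887 to 1.08). The MBD capture was above input at both salt steps, at 1.33-fold (1.21 to 1.45) with 846 reads at 600 mM and 1.52-fold (1.38 to 1.68) with 697 at 800 mM. The hMeDIP density was thus 1.44-fold of the MeDIP density (1.31 to 1.59). The median 1 kb bin of the windows was at 1.06-fold of input in hMeDIP, 0.876-fold in MeDIP, 0.963-fold at 600 mM and 0.984-fold at 800 mM, where the medians over all 2440090 bins with a read in any library were 0.872, 0.853, 0.801 and 0.757. For single bins, 0.5 RPM (reads scaled to a library of 1000000) were added to both sides of the ratio, which pulls it toward 1.

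Within these sums the 5′ ends of the genes differed from the rest, to an extent that varied between genes. A start zone was set for each gene from 1 kb outside to 3 kb inside the 5′ end of its window, 28 kb in all, and the rest of the window is called the body. In the start zones the 5mC antibody gave 58 reads and the 5hmC antibody 384, against 192 in the input. MeDIP was at 0.540-fold of input (0.396 to 0.728) and hMeDIP at 2.02-fold (1.69 to 2.41). The hMeDIP density was 3.73-fold of the MeDIP density (2.83 to 5.01) in the start zones and 1.30-fold (1.18 to 1.43) in the bodies, and the ratio of these ratios was 2.87 (2.13 to 3.92). It was above 1 in value in all 7 genes, but barely so at Pax6 (1.02, 0.582 to 1.85) and Sox17 (1.11, 0.0218 to 11.0). Its interval excluded 1 only at Gata4 and Gata6, whose bodies are the longest at 46 and 31 kb, and included 1 in the other 5. Without Gata4 and Gata6 it was 1.63 (1.16 to 2.33). The MBD capture was at 0.697-fold of input (0.527 to 0.915) at 600 mM and 0.751-fold (0.550 to 1.01) at 800 mM in the start zones, and 1.42-fold (1.30 to 1.57) and 1.62-fold (1.46 to 1.79) in the bodies. Dividing by the median bin ratio of each library (0.853 in MeDIP, 0.801 at 600 mM) put the start zones at 0.633-fold (0.464 to 0.854) in MeDIP. At 600 mM they were then at 0.870-fold (0.657 to 1.14), with 1 inside the interval. These medians include the added 0.5 RPM, which pulls them toward 1, whereas the start zone ratios are raw. Raw medians of 4 kb tiles were lower, at 0.732-fold in MeDIP and 0.571-fold at 600 mM, so a typical 4 kb stretch was not set to 1. Input density was 0.367 RPM per kb in the start zones and 0.426 in the bodies.

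**Figure D1:**
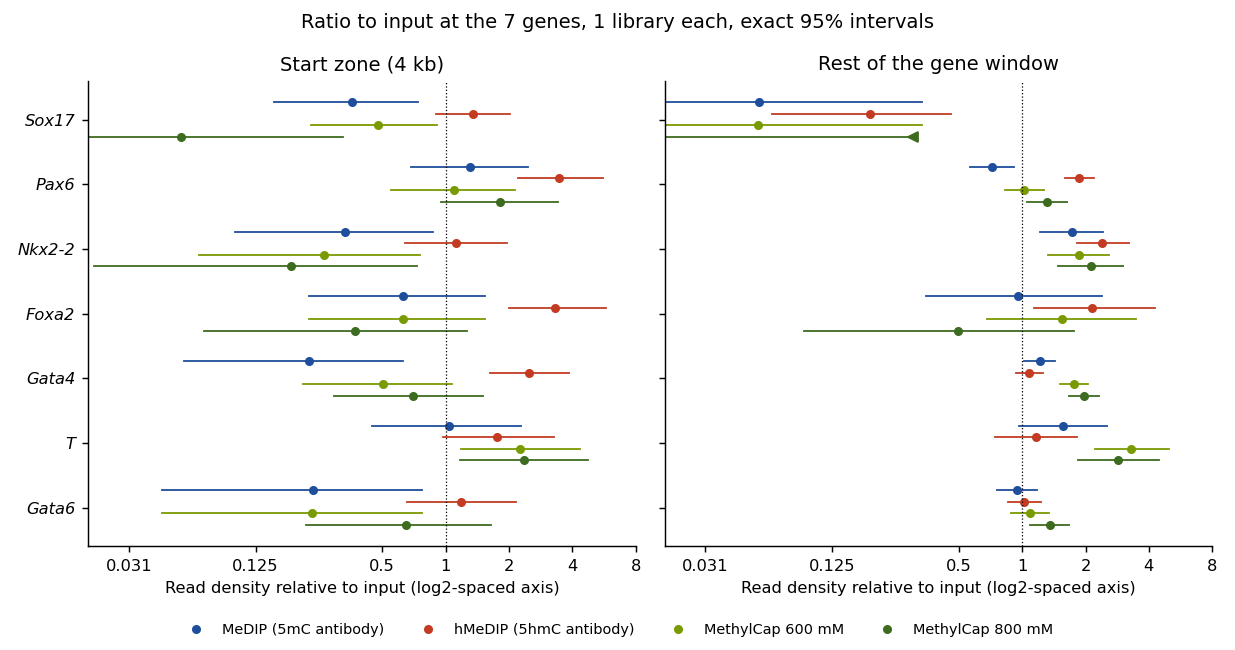
Ratio of read density to input (horizontal axis, log2-spaced) for each of the 7 genes in the 4 kb start zone (left) and the rest of the window (right). Points are single libraries, lines are exact 95% intervals cut at the left edge, and the triangle at Sox17 is the upper end of an interval for 0 reads at 800 mM. In the start zones the hMeDIP points lie between 1.12 and 3.45, to the right of the MeDIP point of the same gene in all 7.

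All 7 start zones had a higher density with the 5hmC than with the 5mC antibody, and the interval of the ratio lay above 1 in 6 of them, T being the exception. In hMeDIP the start zones ran from 1.12-fold to 3.45-fold of input, with the interval above 1 at Pax6, Foxa2 and Gata4. In MeDIP they ran from 0.224-fold to 1.31-fold, with the interval below 1 at Sox17, Nkx2-2, Gata4 and Gata6. The share of all 4 kb tiles with an interval above or below 1 was not computed, so these counts cannot be called particular to the genes. Among start zone ratios to input whose interval excluded 1, only those of T turned when the zone was made smaller: with 1 kb in place of 3 kb inside the window, T turned from above to below input in both eluates, at 0.595-fold (0.0587 to 3.33) at 600 mM and 0.829-fold (0.0818 to 4.64) at 800 mM.

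The 5mC antibody or the MBD alone did not set the start zones far from the rest of the genome. The typical stretch was itself below input: over the 581685 tiles of 4 kb with at least 3 input reads per kb, the median was 0.732-fold in MeDIP, 0.762-fold in hMeDIP, 0.571-fold at 600 mM and 0.498-fold at 800 mM. Between 12.2% (Gata4) and 72.2% (Pax6) of these tiles were lower than a start zone in MeDIP, and between 29.0% (Gata6) and 85.7% (T) at 600 mM. In hMeDIP between 66.7% (Nkx2-2) and 96.4% (Pax6) were lower, so each start zone was above the median tile.

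The ratio of the antibodies set them further apart. The start zones were set beside the same tiles, 581142 of which had a read of either antibody or both and so a rank. hMeDIP was higher than MeDIP in 51.6% of all 581685. The ratio of a start zone was above that of 99.1% of the tiles for Gata4, 98.1% for Foxa2, 97.8% for Gata6, 96.1% for Sox17, 94.9% for Nkx2-2, 91.6% for Pax6 and 77.0% for T. Across the genome this ratio was lower where more MBD capture was seen. In tiles with no read at 600 mM, hMeDIP was 1.27-fold of MeDIP (1.26 to 1.27), in tiles with 1 to 5 reads 1.21-fold, with 6 to 10 reads 1.12-fold, with 11 to 20 reads 1.06-fold, and with 21 to 40 reads 0.990-fold, and with 41 or more 0.855-fold. The start zones held 3 to 24 reads each at 600 mM, and their summed ratio of 3.73 was above the pooled value of each of these classes. The rank of the start zones within a class was not computed, and tiles were not matched for CpG content.

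**Figure D2:**
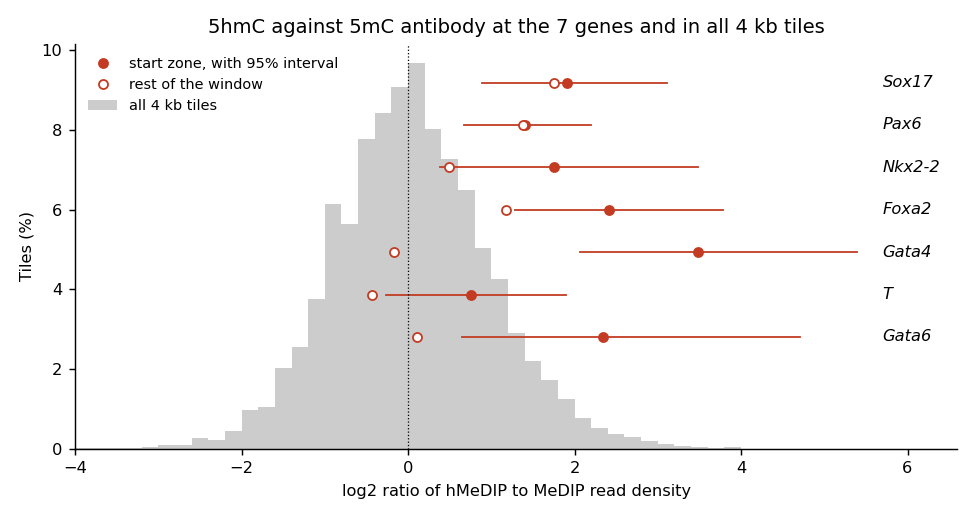
Log2 ratio of hMeDIP to MeDIP read density (horizontal axis). Filled points with exact 95% intervals are the 4 kb start zones, open points the rest of each window (other lengths, intervals not drawn), and grey bars the percentage of the 575621 tiles of 4 kb that had reads of both antibodies (those past 4 either way are in the end bars). All 7 filled points lie right of 0, and the open points of Gata4 and T lie left of it.

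Position by position, summed over the 7 genes, the antibodies were furthest apart around the 5′ end. In the first 1 kb inside the windows there were 8 MeDIP, 75 hMeDIP, 8 and 4 MethylCap (600 and 800 mM) and 47 input reads. MeDIP was at 0.304-fold of input there (0.124 to 0.650), the 600 mM eluate at 0.304-fold (0.124 to 0.649), the 800 mM eluate at 0.212-fold (0.0554 to 0.579) and hMeDIP at 1.61-fold (1.10 to 2.37). The hMeDIP density was 5.29-fold of MeDIP in this bin (2.55 to 12.7) and 5.59-fold in the bin just outside (3.08 to 11.1), and it was the higher one in all 7 genes in both, as it was in 4 other bins. The change with distance was not steady. Going inward the ratio was 4.07 in the second bin, 2.43 in the third, 3.70 (2.24 to 6.45) in the fourth, which lies past the start zone, and 2.03 (1.22 to 3.52) in the fifth. Upstream it was 3.14 (1.83 to 5.72) in the fourth bin outside and 2.97 (1.87 to 4.93) in the fifth. In the 9 kb upstream of the start zones it was 1.59 (1.39 to 1.83), or 2.08 (1.76 to 2.45) without 1 bin near T that is described below, where MeDIP was at 0.616-fold of input (0.519 to 0.728). That bin was chosen by its MeDIP ratio, so the rise without it follows in part from the choice. In the 10 kb downstream of the windows the ratio of the antibodies was 1.27 (1.09 to 1.48). Genes are not replicates, and these sums weigh genes by their reads.

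**Figure D3:**
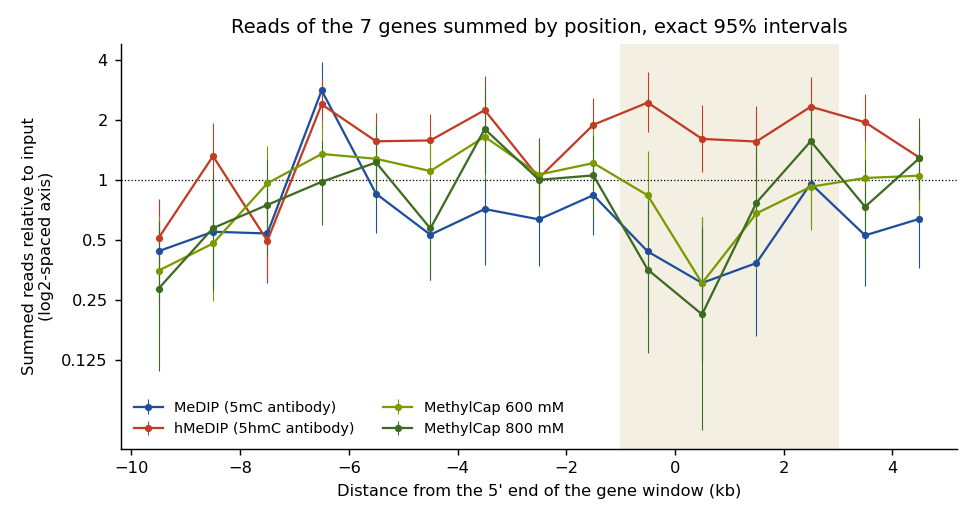
Reads of the 7 genes summed in 1 kb bins, relative to input (vertical axis, log2-spaced), by distance from the 5′ end of the window in kb; vertical lines are exact 95% intervals and the shaded band is the start zone. MeDIP and both eluates dip to 0.304, 0.304 and 0.212 in the first bin inside the windows while hMeDIP stays above 1, and the peak of MeDIP at 2.82 upstream comes from 1 bin near T.

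The endoderm regulators Sox17, Foxa2, Gata4 and Gata6 are described first. Sox17, an HMG-box factor of definitive endoderm, had the lowest window ratio to input of the 7 in each enriched library. Its 6 kb window held 8 MeDIP, 52 hMeDIP, 6 and 1 MethylCap reads (600 and 800 mM) against 69 in the input. MeDIP was at 0.207-fold of input (0.0861 to 0.432), and 8.1% of tiles of 6 kb were lower. The 600 mM eluate was at 0.155-fold (0.0551 to 0.355) and hMeDIP at 0.760-fold (0.520 to 1.11). The ratio of the antibodies over the window, 3.67 (1.73 to 8.93), was the highest of the 7 windows in value, and 98.0% of tiles of 6 kb were lower. Of the 52 hMeDIP reads of the window, 46 lay in the start zone, and 14 more in its bin outside the window gave 60 against 45 in the input (1.34-fold, 0.898 to 2.03). In the 3 kb of the body hMeDIP had 6 reads against 32, at 0.189-fold (0.0646 to 0.458). The 800 mM eluate had no read in the 10 kb upstream against 103 in the input (upper bound of the ratio 0.0907), and 3 in the 10 kb downstream. In 3 bins of the downstream flank no library had a read.

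Foxa2, a forkhead factor that opens chromatin at endoderm genes, had hMeDIP above input in its window and downstream of it, with MBD capture near input at 600 mM in the window and below input in the flanks. The 5 kb window held 11 MeDIP, 54 hMeDIP, 15 and 4 MethylCap and 28 input reads. hMeDIP was at 1.94-fold of input (1.21 to 3.19), MeDIP at 0.703-fold (0.316 to 1.46) and the 600 mM eluate at 0.956-fold (0.475 to 1.85). The start zone had 66 hMeDIP reads against 7 with the 5mC antibody and 20 in the input, at 3.33-fold of input (1.99 to 5.80), but 44 of the 66 lay in the bin just outside the window at 147873001–147874000. This bin was at 3.29-fold in hMeDIP and 1.01-fold in MeDIP, with 4 MeDIP reads. In the 10 kb downstream hMeDIP was at 2.33-fold (1.70 to 3.23) with 134 reads, and the eluates at 0.369-fold (0.181 to 0.695) and 0.343-fold (0.141 to 0.722). No flank of another gene had hMeDIP above and both eluates below input beyond their intervals. The upstream flank of Foxa2 did, at 1.38-fold (1.04 to 1.84) in hMeDIP, but its hMeDIP fell to 0.959-fold (0.694 to 1.32) without the bin just outside the window.

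Gata4, a zinc-finger factor of endoderm and heart, had the highest ratio of the antibodies at the start and the largest drop from start to body in value. Its start zone held 4 MeDIP and 79 hMeDIP reads against 32 in the input, and 9 reads in each eluate. hMeDIP was at 2.49-fold of input (1.63 to 3.88) and MeDIP at 0.224-fold (0.0574 to 0.630), so that hMeDIP was 11.1-fold of MeDIP (4.18 to 41.9). In the 46 kb of the body the antibodies were near each other, with 371 hMeDIP and 235 MeDIP reads and a ratio of 0.890 (0.754 to 1.05). The ratio of start to body was 12.5 (4.59 to 47.6), above the interval of Pax6 (0.582 to 1.85) and overlapping that of each other gene. The body was captured by the MBD, at 1.75-fold of input (1.51 to 2.04) at 600 mM and 1.96-fold (1.67 to 2.31) at 800 mM. A bin of the body at 63853001–63854000 held 46 reads at 600 mM (5.60-fold), 26 at 800 mM (4.53-fold) and 18 with the 5mC antibody (2.54-fold), but 4 with the 5hmC antibody (0.818-fold) against 7 in the input. With 0.5 RPM added to both, no other of the 146 bins had 3 times or more MeDIP over hMeDIP. Raw densities could differ by more, as in the Gata4 bin at 63849001–63850000 with 0.670 RPM in MeDIP (7 reads) and 0.0540 in hMeDIP (1 read). The highest MeDIP bin of Gata4 with at least 5 input reads, at 63822001–63823000, had 16 MeDIP reads (2.65-fold) and 23 at 800 mM (4.64-fold), but 8 with the 5hmC antibody (1.21-fold). Upstream the picture turned again, with hMeDIP at 2.08-fold over 10 kb (1.60 to 2.72), MeDIP at 0.811-fold (0.541 to 1.20) and the 600 mM eluate at 1.81-fold (1.32 to 2.46). The highest bin there, at 63867001–63868000 and next to the start zone, held 43 hMeDIP reads (3.44-fold), 14 MeDIP reads (2.24-fold) and 25 and 15 MethylCap reads (3.52-fold and 3.04-fold).

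Gata6, the zinc-finger factor of primitive endoderm, had few reads of either kind of 5mC assay at its start. The start zone held 3 MeDIP, 27 hMeDIP, 3 and 6 MethylCap reads against 23 in the input. MeDIP was at 0.233-fold (0.0448 to 0.772) and hMeDIP at 1.18-fold (0.654 to 2.16), a ratio of the antibodies of 5.07 (1.56 to 26.1). The next bin inside, at 11055001–11056000, added 33 hMeDIP reads (2.32-fold) against 3 with the 5mC antibody. In the body the ratio was 1.08 (0.870 to 1.35), and the ratio of start to body was 4.69 (1.40 to 24.6). Bins with more 5mC signal lay deep in the body. The bin at 11079001–11080000 held 23 MeDIP reads (3.52-fold) and 14 hMeDIP reads (1.64-fold) against 5 in the input. Near the 3′ end of the window, the bin at 11084001–11085000 was enriched with the 5mC antibody (19 reads, 3.25-fold) and in both eluates (23 reads, 3.78-fold, and 24 reads, 5.18-fold) and at 1.68-fold in hMeDIP.

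T (Brachyury), the T-box factor of the primitive streak and mesoderm, had the highest window ratio to input of the 7 in both eluates. The 9 kb window held 97 reads at 600 mM and 63 at 800 mM against 57 in the input, at 3.04-fold (2.17 to 4.29) and 2.75-fold (1.89 to 4.01). At 600 mM the interval lay above that of each other window. At 800 mM it overlapped those of Gata4 (1.61 to 2.22) and Nkx2-2 (1.23 to 2.38). For the 600 mM eluate 92.9% of tiles of 9 kb were lower, and this was the highest of the 7 windows. MeDIP had 46 reads (1.44-fold, 0.957 to 2.17) and hMeDIP 78 (1.38-fold, 0.968 to 1.98), a ratio of the antibodies of 0.956 (0.656 to 1.41). In the start zone hMeDIP had 33 reads and MeDIP 11, a ratio of 1.69 (0.834 to 3.71). The bin at 8634001–8635000, toward the 3′ end, was at 3.85-fold at 600 mM and 4.07-fold at 800 mM.

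The bin with the highest MeDIP and hMeDIP ratios to input, among all bins of the windows and flanks, lay in the upstream flank of T, at 8620001–8621000. It held 89 MeDIP and 91 hMeDIP reads, 35 at 600 mM and 10 at 800 mM, against 5 in the input. MeDIP was at 11.8-fold, hMeDIP at 7.05-fold, the 600 mM eluate at 5.01-fold and the 800 mM eluate at 2.39-fold; the interval of the raw MeDIP ratio was 13.1 to 100.4. The upstream flank of T as a whole was at 2.94-fold in MeDIP (2.18 to 3.99), and without this bin at 0.815-fold (0.515 to 1.26). The ratio of the antibodies over this flank was 0.926 (0.734 to 1.17) with the bin and 1.93 (1.28 to 2.98) without it. The bin was left out as the highest of the flank in MeDIP, so the rise follows in part from the choice. What sequence lies there was not analysed here.

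The neural regulators were Pax6 and Nkx2-2. Pax6, a paired-box and homeobox factor of eye and forebrain, had a higher hMeDIP than MeDIP density in 26 of the 30 bins of its window and not at its start alone. The same held for 6 of 6 bins at Sox17, 10 of 13 at Nkx2-2 and 4 of 5 at Foxa2. At Gata6 it held for 22 of 34 bins, at Gata4 for 25 of 49 and at T for 4 of 9. The 30 kb window held 517 hMeDIP and 114 MeDIP reads against 264 in the input. hMeDIP was at 1.97-fold of input (1.70 to 2.30), MeDIP at 0.772-fold (0.614 to 0.966), and their ratio was 2.56 (2.08 to 3.16). Of the 82051 tiles of 30 kb ranked by the ratio of the antibodies, 99.7% were lower, whereas 90.7% of the 82053 with the same minimum of input reads were lower in hMeDIP itself and 48.7% in MeDIP. The ratio was 2.64 (1.60 to 4.59) in the start zone, 2.59 (2.08 to 3.26) in the body and 2.82 (1.97 to 4.13) in the 10 kb upstream, but 0.731 (0.505 to 1.06) in the 10 kb downstream. The RefSeq table lists Pax6os1 and Elp4 as overlapping Pax6 in GRCm38, so reads here cannot be given to Pax6 alone.

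Within Pax6 the hMeDIP signal came in several separate bins. The highest, at 105525001–105526000, held 52 hMeDIP reads (3.37-fold), 12 MeDIP reads (1.68-fold), and 20 in each eluate (2.46-fold at 600 mM and 3.22-fold at 800 mM), against 9 in the input. A bin 2 kb before it, at 105523001–105524000, held 34 hMeDIP reads (3.04-fold), 2 MeDIP reads, 3 at 600 mM and none at 800 mM. Bins with high hMeDIP thus occurred both with many and with few MBD reads within this gene. Absence of capture is not shown for the second bin, which was at 1.02-fold of input at 600 mM (raw interval 0.166 to 5.50). At 105536001–105537000, toward the 3′ end, the order turned, with 22 MeDIP reads (2.09-fold), 13 hMeDIP reads (0.962-fold) and 26 at 800 mM (3.17-fold) against 14. The lowest hMeDIP bin, at 105517001–105518000, had no hMeDIP read against 12 in the input.

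Nkx2-2, a homeobox factor of ventral neural tube and pancreatic islets, was above input in all 4 libraries over its 13 kb window, but for 3 of them through 2 bins at the 3′ end. It held 74 MeDIP reads (1.42-fold, 1.03 to 1.95), 195 hMeDIP reads (2.11-fold, 1.64 to 2.74), 77 at 600 mM (1.48-fold, 1.08 to 2.02) and 64 at 800 mM (1.71-fold, 1.23 to 2.38), against 93 in the input. With the window widened by 1 kb on either side, the MeDIP interval included 1 (1.32-fold, 0.970 to 1.78). The 2 bins with MeDIP past 3-fold, both at the 3′ end, held 52 of the 74 MeDIP, 60 of the 195 hMeDIP, 39 of the 77 and 42 of the 64 MethylCap reads. Without them hMeDIP stayed at 1.64-fold (1.24 to 2.18), while MeDIP turned to 0.474-fold (0.282 to 0.766). The 600 mM eluate turned to 0.817-fold (0.541 to 1.21) and the 800 mM eluate to 0.659-fold (0.392 to 1.07). These bins were chosen by their MeDIP ratio, so a larger fall in MeDIP than in hMeDIP follows in part from the choice. Of these 2, the bin at 147001001–147002000 held 34 MeDIP, 45 hMeDIP, 22 and 25 MethylCap reads against 6 and was at 4.57-fold, 3.57-fold, 3.17-fold and 4.66-fold. It was the single bin of the 146 that was enriched 3-fold or more in all 4 libraries. The start zone was low in MeDIP and both eluates, with 5 MeDIP and 4 and 2 MethylCap reads against 27 in the input. In hMeDIP it was near input with 30 reads (1.12-fold, 0.644 to 1.96). Its ratio of the antibodies was 3.38 (1.30 to 11.2). The middle of the window held a bin at 147007001–147008000 with 36 hMeDIP reads and 1 MeDIP read. In the RefSeq table Nkx2-2os and 6430503K07Rik overlap Nkx2-2, LOC115486424 overlaps T and Gata6os overlaps Gata6, so reads at these genes cannot be given to 1 gene alone either.

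**Figure D4:**
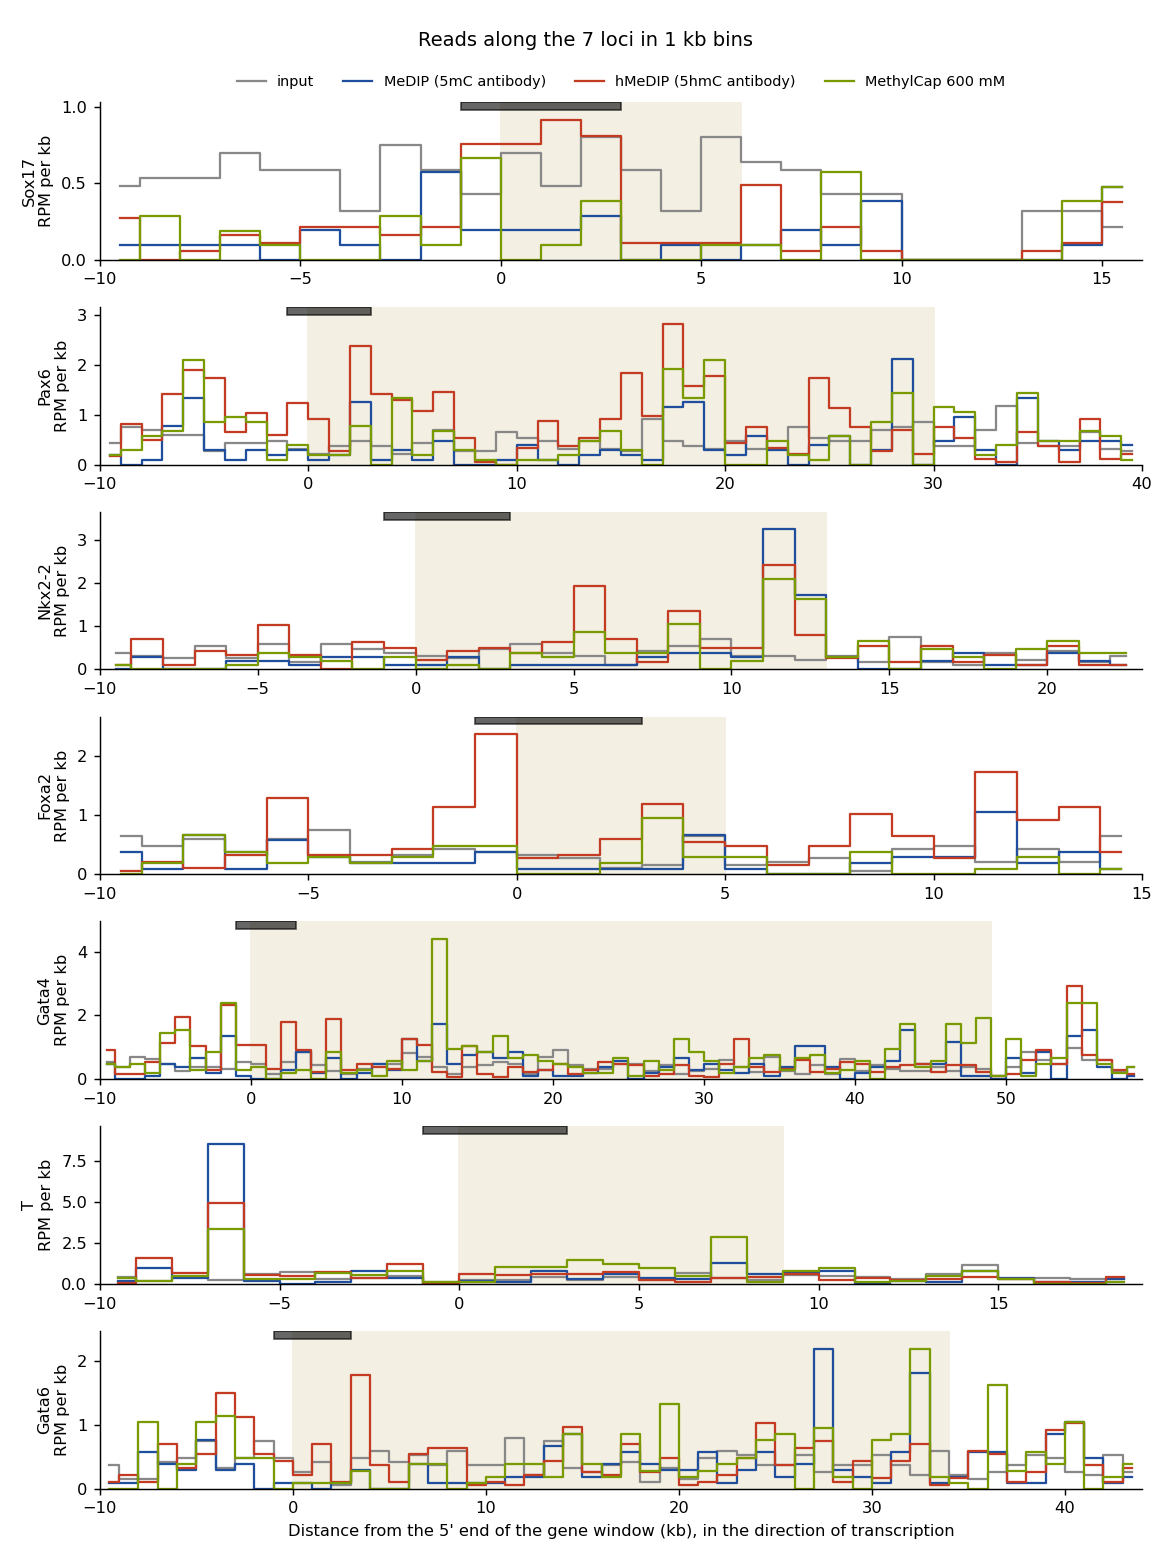
RPM in 1 kb bins (vertical axes, each panel with its own scale) along the 7 loci by distance in kb from the 5′ end of the window, for input, MeDIP, hMeDIP and the 600 mM eluate. The gene window is shaded and the dark bar marks the start zone; hMeDIP is above MeDIP over much of Pax6 and around the start of Gata4, and the tallest MeDIP bin is the one upstream of T with 89 reads.

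Counts of single bins past 3-fold were small and close to the share over the genome for the antibodies. With the 5mC antibody 4 of the 146 bins were enriched (2.74%), against 2.5% of all bins with a read, and they lay in Nkx2-2 and Gata6. With the 5hmC antibody 4 were enriched (2.74%), against 1.93% of all bins, in Pax6, Nkx2-2 and Gata4. The 600 mM eluate had 5 (3.42%, against 3.33%), 1 in each of Pax6, Nkx2-2, Gata4, T and Gata6. The 800 mM eluate had 14 (9.59%, against 4.27%), of which 6 were in Gata4 and none in Sox17 or Foxa2. None of the 28 bins of the start zones was enriched in MeDIP or in either eluate, and 1 was in hMeDIP, the bin just outside Foxa2. No bin of the windows was at or below the inverse of 3-fold of input in any library (all bins 0.472% in MeDIP, 0.237% in hMeDIP, 0.708% at 600 mM and 0.861% at 800 mM), but with the added 0.5 RPM this needs 19 input reads and the highest gene bin had 17. With the added 0.5 RPM and this threshold, depletion could not be called in a single bin of the windows; other settings did call it, in numbers given in the section on processing choices. The raw ratio of the lowest Pax6 bin in hMeDIP, with no read against 12, had an upper bound of 0.363.

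Between the antibodies, with 0.5 RPM added to both, hMeDIP exceeded MeDIP 3-fold or more in 4 of the 146 bins (2.74%, all bins 0.481%). MeDIP exceeded hMeDIP in the same way in 1 (0.685%, all bins 0.406%). The 4 lay in Pax6 (2), in Nkx2-2 and at the 5′ end of Gata4. Over all bins of the windows the median ratio of hMeDIP to MeDIP was 1.19, and 66.4% of the 146 were above 1, against a median of 1.0 and 49.9% over all bins with a read. In the flanks the median was 1.22 and 71.4% were above 1.

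Summed over the windows, the salt steps differed little. The 800 mM density was 1.15-fold of the 600 mM density (1.04 to 1.27). With 0.5 RPM added, no bin of the windows differed 3-fold in either direction (all bins 0.221% higher at 800 mM and 0.111% at 600 mM). That is close to these small shares, and the median bin of the windows held 4 reads at 600 mM and 2 at 800 mM. Among single windows the interval excluded 1 at Pax6, at 1.35-fold (1.07 to 1.70). In the flanks the order turned, at 0.818-fold upstream (0.684 to 0.975) and 0.792-fold downstream (0.654 to 0.956). Around Sox17 the 800 mM eluate was the lower one, with 1 read against 12 at 600 mM in the start zone (0.116-fold, 0.00272 to 0.785).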

How the data were processed

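The submitters' processing notes name BWA 0.5.8 and mm9. Each line of the deposited files is 1 read (35 bp) with position and strand, so values are raw read counts made from the authors' alignments. At most 1 read per position and strand was present in the antibody and input libraries and at most 2 in MethylCap, which caps dense signals. A deposited flag of 0 or 1 without stated meaning was 1 for 7.81 to 8.36% of reads of MethylCap and input and for none of the antibody libraries.

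Reads were placed by midpoint with Python 3.11.15 (numpy 2.4.6, scipy 1.17.1) in the gene windows, 10 kb flanks and 1 kb bins, and scaled to the reads on chromosomes 1 to 19 and X. Sums were compared as raw ratios with exact intervals. Bins used (RPM + 0.5)/(input RPM + 0.5), with 3-fold as threshold. Counting and intervals were tested on simulated data. The ends of the windows are rounded to 1 kb; the strand came from the RefSeq promoter table for Pax6, Nkx2-2, Foxa2 and T and from background knowledge for Sox17, Gata4 and Gata6, and exact mm9 transcript starts were not used. Single bins named are, per gene, the highest and lowest in hMeDIP and MeDIP and the highest flank bin, with at least 5 input reads. Other bins past 3-fold in a library or between the antibodies were named after their values were seen. Genes and comparisons were chosen with earlier results of these data known. Other bivalent genes were not analysed here.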

Additional observations from a re-analysis of the deposited data

How the results depend on the processing

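The ratios of summed windows and start zones stayed within their intervals with reads extended to 200 bp fragments, without reads that had a 1 in the flag, and with windows widened by 1 kb. When ratios were divided by the median bin ratio of each library, the windows moved to 1.15-fold (MeDIP), 1.62-fold (hMeDIP), 1.66-fold (600 mM) and 2.01-fold (800 mM) of input. Enriched bins of the windows moved to 7 in hMeDIP and 13 at 600 mM, but the share over all bins was not computed at this scaling. The antibody ratio of the start zones was then 3.65, and the interval of their 600 mM value, 0.870-fold (0.657 to 1.14), included 1. For windows and start zones, raw ratios were divided by medians that include the added 0.5 RPM, so a typical stretch of that length was not set to 1. With 1 kb inside the start zone, MeDIP fell to 0.373-fold, the 800 mM eluate to 0.285-fold and the eluate ratio to 0.495, the antibody ratio was 5.47, and T turned to 0.595-fold and 0.829-fold in the eluates; the cause was not tested. Leaving out each gene in turn, an alternative added after seeing the data, gave an antibody ratio of 3.18 (without Gata4) to 4.27 (without Pax6) in the start zones. The ratio of start zone to body moved to 4.12 without Pax6, 2.02 without Gata4 and 1.63 without Gata4 and Gata6, and was 2.69 to 3.15 without each other gene. Nkx2-2 without its 2 bins, which were chosen by their MeDIP ratio and also added later, turned to 0.474-fold in MeDIP, 0.817-fold at 600 mM and 0.659-fold at 800 mM.

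Counts of bins depended on the settings. Enriched bins in MeDIP, hMeDIP and the 600 mM eluate numbered 8, 15 and 19 with 0.1 RPM added, and 9, 14 and 18 at 2-fold. With 1 RPM they were 1, 0 and 1, and 4 at 800 mM, and in 500 bp bins 2 each in MeDIP and hMeDIP. Depleted bins in MeDIP, hMeDIP and the 600 mM and 800 mM eluates numbered 25, 9, 25 and 32 with 0.1 RPM, and 9, 3, 10 and 10 at 2-fold. Bins higher with the 5hmC and the 5mC antibody numbered 35 and 8 with 0.1 RPM, 0 and 0 with 1 RPM and 25 and 7 at 2-fold; in 500 bp bins 1 was higher with the 5hmC antibody. The share over all bins was not computed at any of these other settings. These counts, enriched, depleted or between the antibodies, therefore cannot be called particular to the genes. No paired analysis was possible because each group has 1 library.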
